A study of Mus musculus with 11 samples.

Results

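The 10 genes described here encode matrix metalloproteinases, or MMPs, and their tissue inhibitors, or TIMPs, and were selected by gene symbol from the 46983 genes of the deposited count table. They are Timp1, Timp2, Timp3, Timp4, Mmp2, Mmp3, Mmp9, Mmp14, Mmp15 and Mmp19. All 10 passed the filter on low counts, which left 19366 genes for testing. The measurements were RNA sequencing of whole aortic valves from wild type mice, with 1 mouse per library, 48 hours after surgery. The young groups were aged 3 to 4 months and the aging groups 16 to 18 months. In the injured groups a wire had been passed in vivo to damage the endothelium of the valve, and the sham groups had a control operation. After sham surgery there were 3 young and 3 aging libraries, and after injury 3 young and 2 aging ones, and no group carried an engineered allele or a drug.

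MMPs are zinc-dependent endopeptidases that cut collagens, elastin, proteoglycan cores and other matrix proteins. They are made as inactive precursors, and TIMPs block the active enzymes by occupying the catalytic site. In the valve leaflet the layered collagen, proteoglycan and elastic matrix is made and turned over mainly by valve interstitial cells. TIMP2 has an additional role, since with MMP14 at the cell surface it forms the complex that activates the precursor of MMP2. TIMP1 inhibits most secreted MMPs but is a poor inhibitor of the membrane-type enzymes, and TIMP3 is bound to the matrix and also inhibits several ADAM and ADAMTS proteases.

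The 250 bases before the annotated start of 3 of the genes are shown because Timp1 and Mmp14 were the members that rose after injury, and Mmp3 was the member with the largest difference between ages in sham valves. The sequences are from RefSeq (build GRCm38.p6, all 3 genes on the plus strand), in lower case with matches to 4 motifs in capitals. The motifs, searched on both strands, were AP-1 (TGANTCA), the GC box (GGGCGG), the TATA box (TATAAA) and PEA3 (AGGAAG), and only the 2 GC boxes of Mmp14 adjoin each other.
Timp1, chrX:20869916-20870165: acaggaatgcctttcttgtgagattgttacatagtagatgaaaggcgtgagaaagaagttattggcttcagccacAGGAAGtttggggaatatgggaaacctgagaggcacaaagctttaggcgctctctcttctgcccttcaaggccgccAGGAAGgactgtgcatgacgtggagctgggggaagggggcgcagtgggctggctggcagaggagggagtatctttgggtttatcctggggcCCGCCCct
Mmp14, chr14:54431348-54431597: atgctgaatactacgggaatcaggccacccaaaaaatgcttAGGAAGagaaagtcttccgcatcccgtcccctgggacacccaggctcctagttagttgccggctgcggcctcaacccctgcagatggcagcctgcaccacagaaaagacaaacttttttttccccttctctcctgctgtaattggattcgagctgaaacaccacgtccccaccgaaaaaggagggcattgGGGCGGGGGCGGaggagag
Mmp3, chr9:7445572-7445821: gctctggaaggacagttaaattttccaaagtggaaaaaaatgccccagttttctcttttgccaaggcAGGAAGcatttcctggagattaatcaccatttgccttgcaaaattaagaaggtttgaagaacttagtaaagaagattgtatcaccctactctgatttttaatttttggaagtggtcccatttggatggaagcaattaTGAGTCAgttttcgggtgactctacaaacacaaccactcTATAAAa

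The AP-1 letters stood 46 bases before the start of Mmp3 and the TATA letters 7 bases before it. Of all 32851 windows of this length in the table, 6.75% held the AP-1 letters, 12.4% the TATA box, 32.7% the GC box and 29.5% PEA3. Timp1 held PEA3 letters at 175 and 99 bases and a GC box at 8 bases before its start, and Mmp14 held PEA3 at 209 bases and GC boxes at 19 and 13 bases. Promoter windows were found for 7 of the 10 genes, and of these 7 only Mmp3 held the AP-1 or the TATA letters. The windows of Timp2, Timp3 and Mmp15 held 1 GC box each, and that of Timp4 held none. No factor binding was measured, and a match of letters is a description of the sequence only.

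Library totals ranged from 27124000 to 36353474 counts. Young sham 1 and both aging injured libraries had the fewest genes with a count, 18641 to 19015, against 20411 to 22533 in the other 8. RNA of cardiac muscle was found in all 11 libraries, with the summed level of 10 cardiomyocyte markers between 17550 and 31470 CPM (read counts relative to library size, with TMM scaling between libraries) in young sham, 7628 and 32390 in young injured, 6693 and 19240 in aging sham, and 10740 and 12270 CPM in aging injured valves. Markers of valve interstitial cells and fibroblasts, 8 genes, summed to 14060 to 22260 CPM over all groups, and 8 endothelial markers to 308.7 to 916.9 CPM. By Xist and Ddx3y counts, 2 of the 3 young sham libraries came from males, as did 1 young injured, 1 aging sham and 0 aging injured libraries. In whole tissue, fewer cells of a type and less RNA per cell cannot be told apart.

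Per length, Timp3 and Timp2 were the most abundant of the 10 transcripts, and Timp4 and Mmp9 the least. On the scale of the authors' RPKM (reads scaled to transcript length and library size), averaged over the 11 libraries, Timp3 stood first at 495 and Timp2 next at 302.2, and they were followed by Mmp2 at 179.2 and Timp1 at 142.2. Mmp3 stood at 68.99, Mmp14 at 25.8, Mmp15 at 10.33 and Mmp19 at 7.369, while Timp4 and Mmp9 were last at 1.394 and 1.392 RPKM. Timp3 ranged from 393 to 645.7 RPKM and did not overlap Timp2, at 222.3 to 361.2. The ranges of Timp4, 0.7656 to 2.308 RPKM, and of Mmp9, 0.3429 to 2.52, overlapped almost wholly. Within groups Timp3 and Timp2 were the steadiest members, with standard deviations of 0.16 and 0.20 on the log2 CPM scale. Mmp15, Mmp9 and Mmp3 were the most variable, at 0.76, 0.60 and 0.58, with Timp4 at 0.53.

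**Figure D1:**
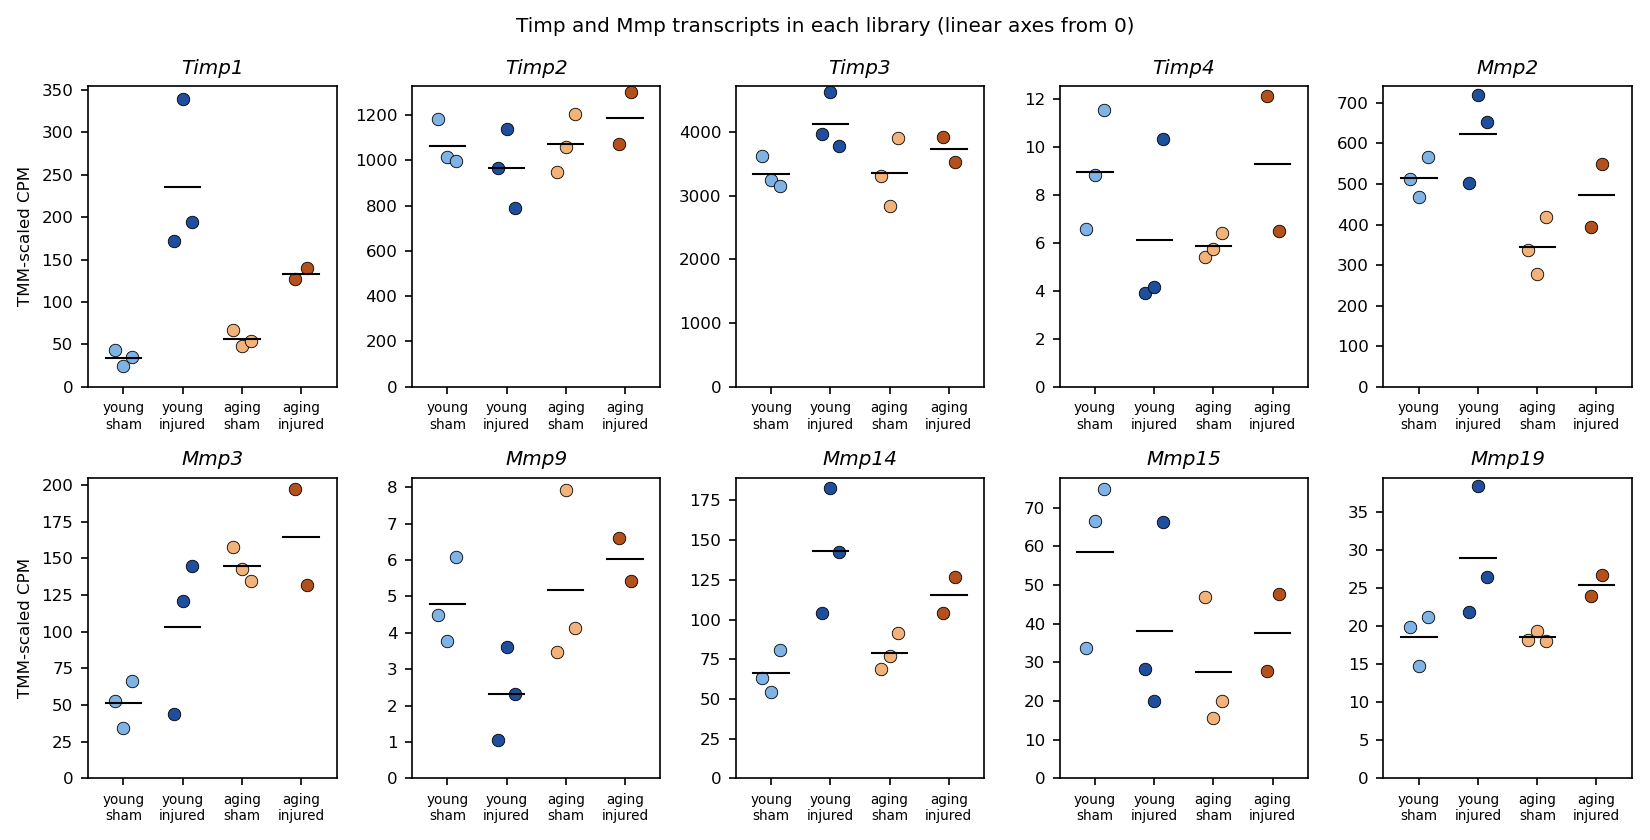
TMM-scaled CPM of each of the 10 genes (linear vertical axes from 0) in the 4 groups; each point is 1 library and each line the group mean. Timp1 separates all 4 groups without overlap, and the 3 aging sham libraries of Mmp3 lie above the 3 young sham libraries.

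Among the inhibitors, injury of young valves raised Timp1. Timp1 (ENSMUSG00000001131, chromosome X, 20870166 to 20874735 in mm10, plus strand) stood at 43.3, 24.4 and 35.3 CPM in young sham and at 172, 339 and 194 CPM in young injured libraries. Every injured library was above every sham library, and young injured 2 was the highest of the 11. The change was 2.77 ± 0.28 on the log2 scale (SE), or 6.84-fold (adjusted p = 0.0054 in edgeR's quasi-likelihood test, n = 3 each). With Mmp14, described below, 2 of the 10 genes passed the test and rose (an adjusted p below 0.1 with more than a 2-fold change), against 0.403% of all genes tested, and 0 fell, against 0.0155%. Timp1 stayed past the threshold in all 21 alternative fits, with log2 changes from 2.40 to 2.98 and adjusted p-values up to 0.079. Timp1 is X-linked, and with sex as a term its change was 2.85. Of the cell type lists, 4 Schwann cell markers separated these groups, at 41.04 to 79.17 CPM in young sham and 30.41 to 37.57 CPM in young injured valves. The 8 macrophage markers overlapped, at 554.9 to 729.1 and 583.6 to 987.7 CPM, with Cd68 at 1.07 ± 0.29 on the log2 scale (adjusted p = 0.204, edgeR). The part of these cells in the Timp1 and Mmp14 changes was not tested.

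In aging valves Timp1 stood at 66.5, 48.2 and 53.8 CPM after sham surgery and at 127 and 140 CPM after injury. The groups again did not overlap, but the change of 1.25 ± 0.29 on the log2 scale did not pass (adjusted p = 0.326, n = 3 and 2, edgeR). DESeq2 called it, with an adjusted p of 0.0166, and the adjusted p over the 21 alternatives ranged from 0.0166 to 0.732. From low to high the groups were young sham, then aging sham, then aging injured and last young injured, with no overlap between neighbours. The aging sham group was 0.71 ± 0.27 above young sham on the log2 scale (adjusted p = 0.49), and the aging injured group 0.82 ± 0.30 below young injured (adjusted p = 0.318), neither past the threshold. The difference between the injury responses of the 2 ages was -1.53 ± 0.41 on the log2 scale with an adjusted p of 0.45 in edgeR. DESeq2 gave 0.0686 for that interaction, past the threshold, and the adjusted p over the 20 alternatives ranged from 0.0686 to 0.89. The alternative fits without a left-out library called 0 to 329 of all genes for injury in aging valves and 0 to 174 for the interaction. The counts of DESeq2 alone are not given here. Both aging injured libraries are among the 3 with the fewest genes detected. Several marker lists also separated aging sham from aging injured valves without overlap. Macrophage markers summed to 614.1 to 856.8 CPM in sham and 938.8 to 951.3 CPM in injured libraries. The 6 adipocyte markers summed to 70.84 to 145.1 and 186.1 to 509.7 CPM, and 8 neutrophil markers to 3.287 to 4.529 and 5.671 to 6.783 CPM. Most of the neutrophil sum after injury was Csf3r, at 5.40 and 5.64 CPM. Ly6g, Mpo, Camp and Cxcr2 were at 0 in both injured libraries. As a log2 score relative to the mean of all libraries, the neutrophil list overlapped, at -1.22 to 0.326 in sham and -1.15 to 0.133 in injured libraries. Lower after injury were mesothelial markers, at 104.6 to 203.6 and 64.78 to 73.72 CPM, smooth muscle markers, at 19010 to 22970 and 16540 to 18770 CPM, lymphocyte markers, at 6.96 to 13.69 and 3.907 to 4.735 CPM, and Schwann cell markers, at 47.77 to 60.12 and 38.99 to 40.88 CPM. The part of these properties in the aging injury results was not tested.

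The other inhibitors did not pass in any comparison. Timp2, the widely expressed inhibitor that takes part in MMP2 activation (chromosome 11, 118301069 to 118355740), stood at 1182, 1015 and 994.5 CPM in young sham and at 967.6, 1137 and 790.9 CPM in young injured libraries, groups that overlapped. Its change was -0.14 ± 0.17 in young and 0.15 ± 0.19 in aging valves on the log2 scale. Timp3, the matrix-bound inhibitor (chromosome 10, 86300372 to 86349506), was higher in all 3 young injured libraries, at 3964, 4631 and 3772 CPM, than in young sham, at 3624, 3245 and 3150 CPM. The change of 0.30 ± 0.17 did not pass (adjusted p = 0.644, edgeR). In aging valves Timp3 stood at 0.15 ± 0.19, and the groups overlapped.

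Timp4, an inhibitor known for its expression in the heart (chromosome 6, 115241892 to 115252205), was counted only 145 to 342 times per library. It stood at 6.58, 8.84 and 11.6 CPM in young sham and at 3.92, 4.15 and 10.3 CPM in young injured libraries. The value of young injured 3 lay inside the sham range and the other two lay below it. Young injured 3 was also the injured library with high cardiomyocyte markers, with a list score of 1.44 on the log2 scale relative to the mean of all libraries, against -0.77 and -0.85 in young injured 1 and 2. The scores of young sham 1, 2 and 3 were 0.247, 1.06 and 1.47. In aging valves Timp4 stood at 5.44, 5.77 and 6.44 CPM in sham libraries, with scores of 0.679, -1.73 and -0.779. The aging injured libraries stood at 12.15 and 6.49 CPM, with scores of -0.567 and -0.207. The part of muscle content in the Timp4 values was not tested. The Timp4 change was -0.55 ± 0.40 in young and 0.66 ± 0.43 in aging valves, with an adjusted p of 0.74 and 0.725 (edgeR).

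Of the gelatinases, which cut denatured collagen and basement membrane, Mmp2 was abundant and Mmp9 was the member with the fewest counts. Mmp2 (chromosome 8, 92827328 to 92853417) stood at 513, 468 and 566 CPM in young sham and at 502, 720 and 652 CPM in young injured libraries. In aging valves it stood at 337, 279 and 418 CPM after sham surgery and at 394 and 550 CPM after injury. The injured and sham groups overlapped at both ages, and the changes of 0.28 ± 0.20 and 0.46 ± 0.22 did not pass. Between ages, the 3 aging sham values were all below the 3 young sham values, by 0.58 ± 0.20 on the log2 scale (a change of -0.58, adjusted p = 0.445, edgeR).

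Mmp9 (chromosome 2, 164940780 to 164955850) was counted 39 to 257 times per library. It stood at 4.50, 3.77 and 6.07 CPM in young sham and at 1.05, 3.61 and 2.33 CPM in young injured libraries. All 3 injured values were below the sham values, but the change of -1.04 ± 0.46 did not pass (adjusted p = 0.524, edgeR). In aging valves the values were 3.48, 7.93 and 4.14 CPM in sham and 6.61 and 5.44 CPM in injured libraries, with a change of 0.22 ± 0.50. Mmp9 is stored by neutrophils, and 8 neutrophil markers summed to 2.053 to 20.34 CPM in young injured and 3.16 to 8.092 CPM in young sham valves. Ly6g, Mpo and Retnlg were at 0 in every young injured library. The highest neutrophil marker score, 3.03, was that of young injured 2. Its Mmp9 level was the highest of the 3 young injured libraries but below those of all 3 young sham libraries. Aging sham 2, with the highest Mmp9 level of the 11 libraries, had a score of -1.22. The part of these cells in the Mmp9 values was not tested.

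Mmp3, stromelysin 1, cuts proteoglycans and activates other MMP precursors. It (ENSMUSG00000043613, chromosome 9, 7445822 to 7455972) had the largest difference of the 10 genes between ages in sham valves. It stood at 53.1, 34.4 and 66.3 CPM in young sham and at 158, 143 and 135 CPM in aging sham libraries. All 3 aging values were above all 3 young ones, and the difference was 1.50 ± 0.38 on the log2 scale, or 2.83-fold (adjusted p = 0.3, edgeR, n = 3 each). Of the 19366 genes 0.0258% were called between ages in sham valves (0.0207% higher and 0.00516% lower in aging valves) and 0 of the 10 described here, although 3 of the 10 and 1779 genes in all had an unadjusted p under 0.05. DESeq2 called Mmp3 at an adjusted p of 0.0128 and no other member, and over the 20 alternatives the adjusted p ranged from 0.0128 to 1, with differences of 1.28 to 1.80. The alternative fits without a left-out library called 2 to 200 of all genes for age in sham valves, and the count of DESeq2 alone is not given here. Mesothelial, smooth muscle and lymphocyte markers also separated young sham from aging sham valves without overlap. The 5 mesothelial markers summed to 13.76 to 57.31 CPM in young sham and 104.6 to 203.6 CPM in aging sham valves. The 5 smooth muscle markers summed to 6906 to 16970 CPM in young sham and 19010 to 22970 CPM in aging sham. The 6 lymphocyte markers summed to 0 to 6.15 CPM and 6.96 to 13.69 CPM. The value of 0 was that of young sham 1, the library with the fewest genes detected, 18641. The part of mesothelial, smooth muscle and lymphoid cells in the Mmp3 difference was not tested.

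After injury Mmp3 stood at 44.2, 121 and 145 CPM in young injured and at 197 and 132 CPM in aging injured libraries. Young injured 1 lay within the sham range and young injured 2 and 3 above it. The change of 1.01 ± 0.37 in young valves did not pass (adjusted p = 0.406, edgeR), and without young injured 1 it was 1.37 and passed (adjusted p = 0.064). In aging valves the groups overlapped, with a change of 0.18 ± 0.41.

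The membrane-type enzyme Mmp14, a collagenase of the cell surface (ENSMUSG00000000957, chromosome 14, 54431612 to 54441265), rose after injury of young valves. It stood at 63.4, 54.5 and 81.0 CPM in sham and at 104, 183 and 143 CPM in injured libraries, with no overlap and with young injured 2 again highest. The change was 1.11 ± 0.22 on the log2 scale, or 2.16-fold (adjusted p = 0.0721, edgeR, n = 3 each). This call was lost in 9 of 21 alternatives, with an adjusted p of 0.298 without young injured 2, 0.281 and 0.195 without young sham 2 and 1, 0.103, 0.132 and 0.113 without aging sham 1, 2 and 3, 0.26 with only the young libraries, 0.104 with the cardiomyocyte score as a term and 0.116 with sex as a term. The log2 change over all 21 lay between 0.89 and 1.30. In aging valves Mmp14 stood at 68.7, 77.05 and 91.3 CPM in sham and at 104 and 127 CPM in injured libraries. The groups did not overlap and the change of 0.55 ± 0.24 did not pass (adjusted p = 0.543). Averaged over age the Mmp14 change was 0.83 ± 0.16 with an adjusted p of 0.0607, under the 2-fold limit. In that average 1 of the 10 genes, Timp1, was called, at 2.01 ± 0.20 (adjusted p = 0.0039), against 0.594% of all genes tested in either direction and 0.434% higher.

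Mmp15, the other membrane-type enzyme (chromosome 8, 95352268 to 95374293), varied most within groups. It stood at 33.8, 66.6 and 74.8 CPM in young sham and at 28.2, 19.9 and 66.3 CPM in young injured libraries. The aging libraries were at 46.8, 15.5 and 19.9 CPM after sham surgery and at 27.6 and 47.7 CPM after injury. Neither injury change passed, at -0.62 ± 0.51 and 0.46 ± 0.56, nor did the difference between ages in sham valves, at -1.09 ± 0.51. The libraries low for Mmp15 had low cardiomyocyte scores, as in young injured 2 at -0.85 and aging sham 2 at -1.73. With that score as a term the Mmp15 change after injury of young valves was -0.02 and the difference between ages in sham valves -0.09. The score itself ran from 0.247 to 1.47 in young sham, -0.849 to 1.44 in young injured and -1.73 to 0.679 in aging sham valves. Because the score varied along with the groups, the fit with the score as a term cannot tell muscle content and group apart. The part of muscle content in the Mmp15 values was not tested.

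Mmp19, a secreted metalloproteinase without the gelatinases' fibronectin-like repeats (chromosome 10, 128790953 to 128800824), was higher in every injured library than in every sham library of the same age. It stood at 19.9, 14.7 and 21.2 CPM in young sham and 21.9, 38.3 and 26.5 CPM in young injured libraries. In aging valves it stood at 18.2, 19.4 and 18.1 CPM in sham and 23.9 and 26.75 CPM in injured libraries. The changes of 0.64 ± 0.21 and 0.45 ± 0.23 did not pass (adjusted p = 0.323 and 0.622, edgeR), nor did their average over age, 0.54 ± 0.16 (adjusted p = 0.2).

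Across the 10 genes, 4 were above and 1 below without overlap after injury of young valves (of all genes tested, 9.54% were above and 5.07% below, 14.6% in all), and 4 were above and 0 below in aging valves (11.1% and 16.7%, 27.8% in all). Between ages, Timp1 and Mmp3 were above and Timp4 and Mmp2 below without overlap in sham valves (11.8% and 9.08% of all genes, 20.9% in all), and Mmp9 was above and Timp1 below in injured valves (9.89% and 14.5%, 24.4% in all). The median log2 change was 0.29 in young and 0.45 in aging valves, against 0.01 and -0.01 over all genes tested. In aging valves 0 of the 10 were called by edgeR, as were 0% of all genes, with 2 of the 10 and 1710 genes in all at an unadjusted p under 0.05. DESeq2 called 1 of the 10, Timp1, and limma-voom none. The alternative fits without a left-out library called 0 to 329 of all genes there, and the count of DESeq2 alone is not given here. In the comparison of the injury responses between ages edgeR also called 0 of the 10, with 0% of all genes called and 1 of the 10, Timp1, among 1523 genes at an unadjusted p under 0.05. Between aging injured and young injured valves 0 of the 10 and 0.062% of all genes (0.0465% higher and 0.0155% lower) were called by edgeR, with 2 of the 10, Timp1 and Mmp9, and 2425 genes in all at an unadjusted p under 0.05, and DESeq2 also called 0. Mmp9 was 1.37 ± 0.50 higher on the log2 scale in aging injured than in young injured valves (adjusted p = 0.309).

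**Figure D2:**
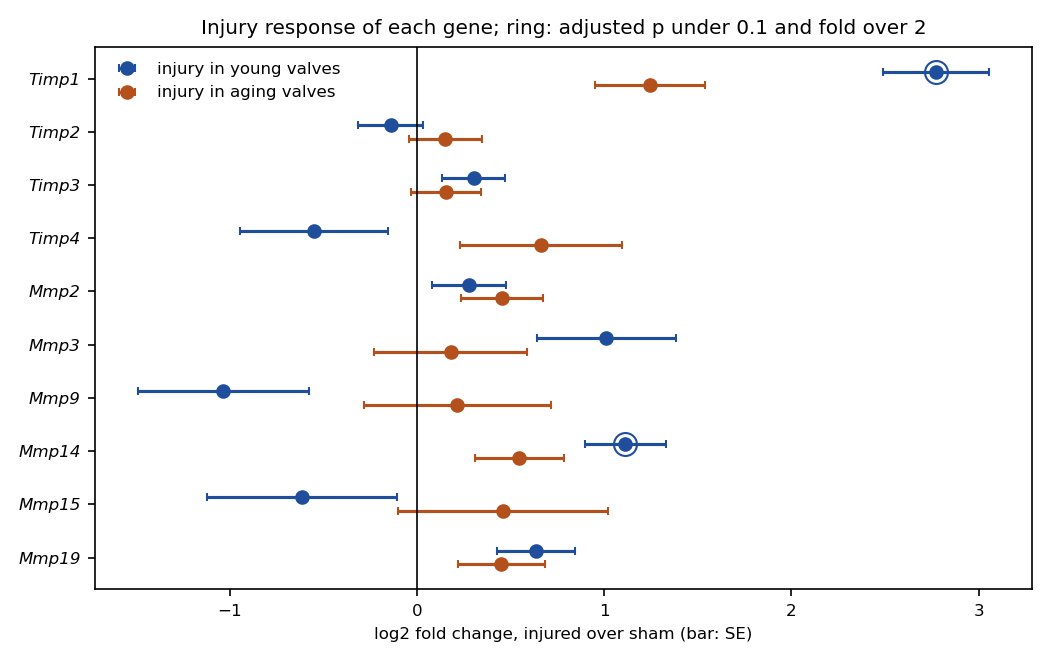
Log2 fold change of injured over sham (horizontal axis; bars are SE from edgeR) for each of the 10 genes in young and in aging valves. The rings mark Timp1 and Mmp14 in young valves, at 2.77 and 1.11, the only points past an adjusted p of 0.1 and a fold of 2. All 10 aging values lie above 0, against 9413 of all 19366 genes tested, and none is ringed.

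Timp1 was a larger part of the inhibitor transcripts after injury. It made up 6.11%, 3.99% and 5.82% of the summed RPKM of the 4 Timp genes in young sham and 20.9%, 30.7% and 24.6% in young injured libraries. In aging valves the shares were 10.3%, 8.02% and 7.12% in sham and 15.8% and 17.0% in injured libraries. The share of Timp2 was 37.7% ± 0.36 in young sham and 24.4% ± 2.05 in young injured valves (SD, n = 3 each), and that of Timp3 was 56.7% ± 1.09 and 50.1% ± 3.78. These shares are descriptions and were not tested, since the Timp1 rise moves all of them.

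Among the proteases Mmp2 took 72.8% ± 2.67 of the summed Mmp RPKM in young sham and 49.9% ± 5.48 in aging sham valves (SD, n = 3 each). The share of Mmp3 was 12.0% ± 2.41 in young sham and 36.0% ± 4.73 in aging sham. It was 17.4% ± 6.09 in young injured (n = 3) and 31.7% ± 10.8 in aging injured valves (n = 2). The ratio of Mmp3 to Mmp2 RPKM lay between 0.124 and 0.198 in young sham and between 0.546 and 0.863 in aging sham libraries. The ranges did not overlap, which follows from the levels, since Mmp3 was above and Mmp2 below without overlap in aging sham libraries. These shares and ratios are descriptions and were not tested.

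**Figure D3:**
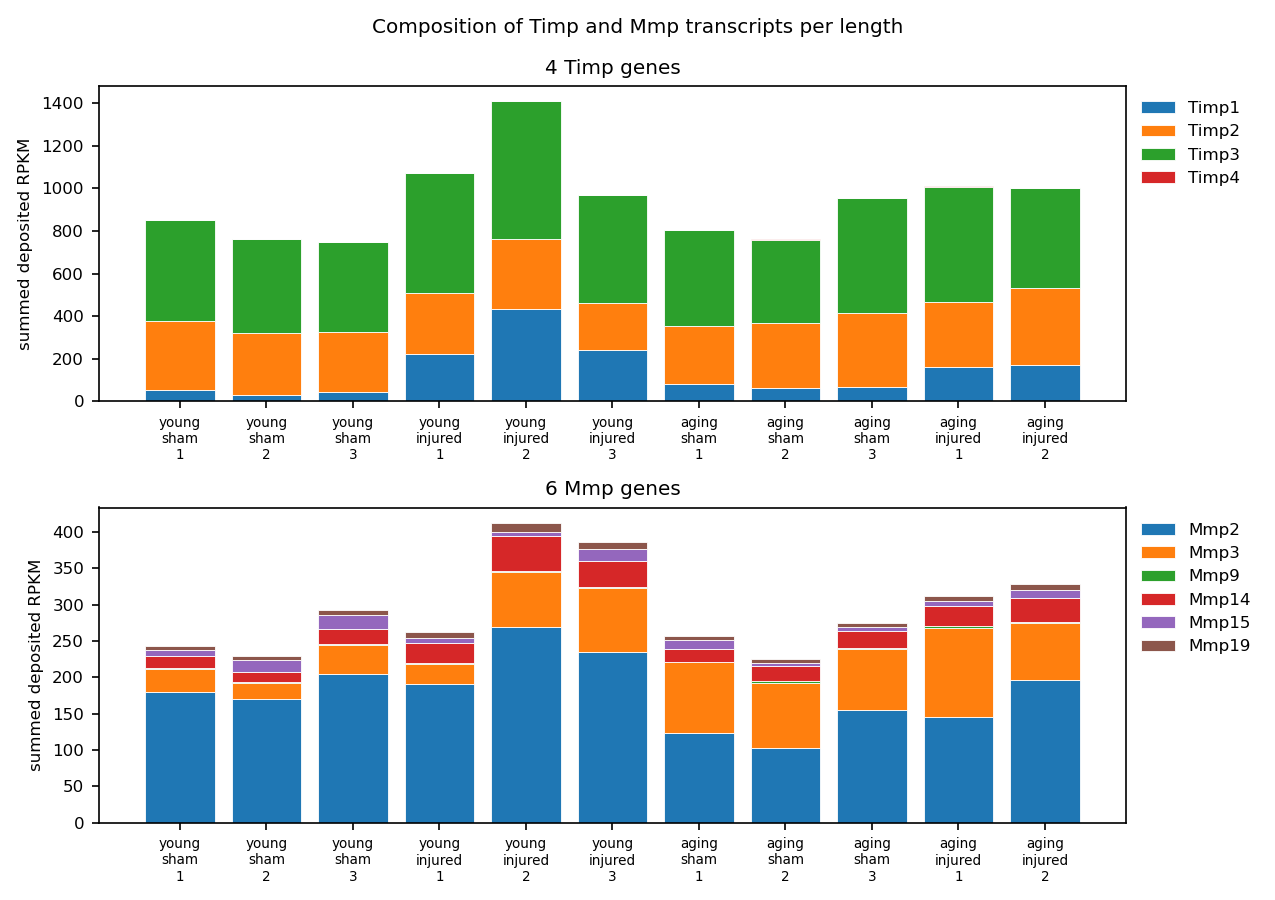
Deposited RPKM of the 4 Timp genes (top) and the 6 Mmp genes (bottom) stacked for each of the 11 libraries. The Timp1 part is widest in the 3 young injured libraries, at 20.9% to 30.7% of the Timp total, and the Mmp3 part is wider in the aging sham than in the young sham libraries.

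The balance of inhibitors to proteases depended on how it was measured. With equal weight to each gene, the mean log2 CPM of the 4 Timp genes minus that of the 6 Mmp genes was 2.17, 2.08 and 1.77 in young sham and 2.73, 2.30 and 2.17 in young injured libraries. The group means differed by 0.40, and the highest sham and the lowest injured library were level at 2.17. In aging valves the balance was 1.96, 1.95 and 2.18 in sham and 2.31 and 2.01 in injured libraries, a difference of 0.13 with overlap. Without Timp1 both differences turned negative, to -0.34 in young and -0.11 in aging valves. As these genes were chosen with results known, no test of the balance was made.

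Weighted by abundance, the group means of the balance lay close together. The ratio of summed Timp to summed Mmp RPKM was 3.13 ± 0.50 in young sham, 3.34 ± 0.79 in young injured, 3.32 ± 0.18 in aging sham (SD, n = 3 each) and 3.14 ± 0.13 in aging injured valves (n = 2). The groups overlapped in young valves and in aging valves. Both sums were higher after injury in the group means, with Timp at 788 ± 55.4 and 1150 ± 231 RPKM and Mmp at 255 ± 33.6 and 353 ± 80.4 RPKM in young sham and young injured valves. Young injured 1 had the highest ratio of all libraries, 4.09, and young injured 3 the lowest, 2.52.

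**Figure D4:**
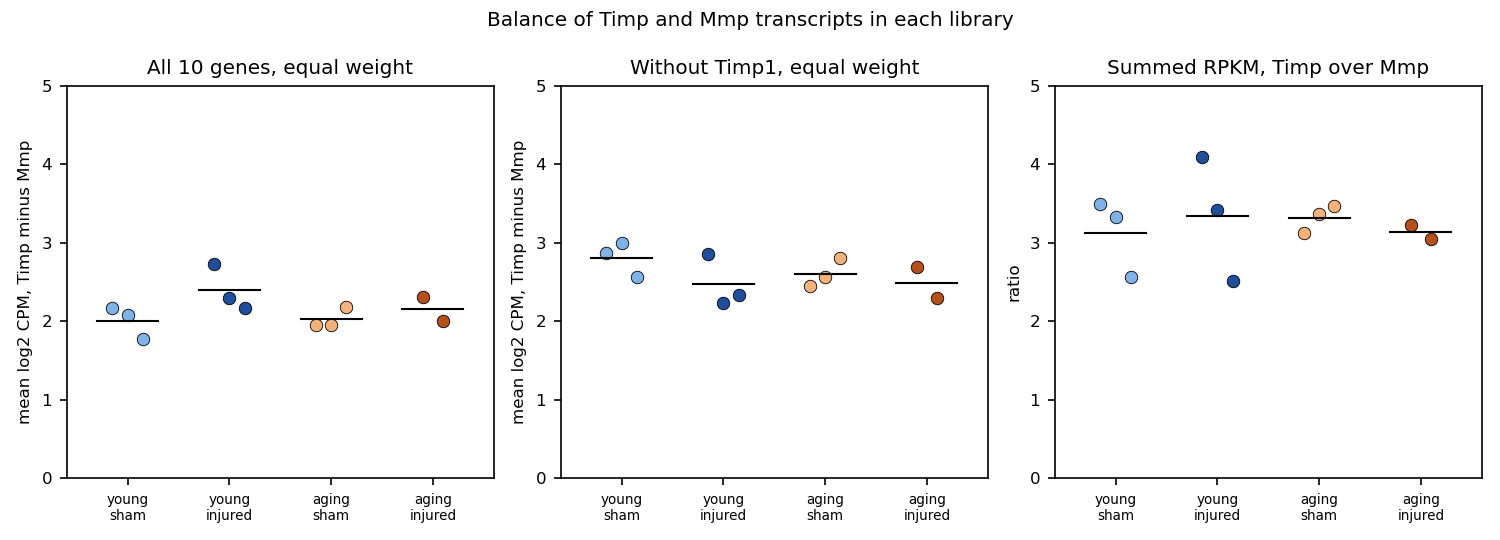
Balance of Timp and Mmp transcripts per library: mean log2 CPM of Timp minus Mmp genes (left), the same without Timp1 (middle) and the ratio of summed RPKM (right), with 1 point per library and a line at each group mean. The young injured mean lies above young sham on the left, 2.40 against 2.01, and below it in the middle, 2.48 against 2.81.

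The ratios of single pairs of an inhibitor and a protease are also given. These pairs were chosen after the values were seen, and are given as RPKM ratios without a test. Timp2 to Mmp14, whose products act together on the MMP2 precursor, stood at 20.6, 20.6 and 13.5 in young sham and at 10.2, 6.86 and 6.12 in young injured libraries. In aging valves this ratio was 15.2, 15.2 and 14.6 in sham and 11.4 and 11.3 in injured libraries. It was lower in every injured library than in every sham library of its age. Timp1 to Mmp14 stood at 2.53 ± 0.68 in young sham and 7.85 ± 1.20 in young injured valves (SD, n = 3 each). Timp1 to Mmp3 stood at 1.39 ± 0.29 in young sham, 5.43 ± 2.60 in young injured and 0.78 ± 0.09 in aging sham valves (n = 3 each), and at 1.73 ± 0.60 in aging injured valves (n = 2). Per length, Timp1 was below Mmp3 in all 3 aging sham libraries and above it in the other 8.

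The other genes of the pathway were taken from 6 lists with 98 genes. Of 17 further Mmp genes 12 were tested and 0 called by edgeR after injury of young valves, with 2 at an unadjusted p under 0.05, as were 1780 of all 19366 genes (0.418% of all genes were called in either direction), and DESeq2 and limma-voom also called 0. Mmp24, a membrane-type enzyme known from neurons, had 53 counts over the young sham and 245 over the young injured group, and stood at 1.95 ± 0.69 on the log2 scale (adjusted p = 0.379, edgeR). Per library its counts ran from 13 to 26 in young sham and from 40 to 152 in young injured valves. Mmp8, the neutrophil collagenase, had 1 count over the young sham and 25 over the young injured group, too few for a level. In aging valves 0 of the 12 were called by any of the 3 tools, with 1 at an unadjusted p under 0.05, and Mmp24 stood at 1.73 ± 0.73. Mmp8 there had 6 counts in all sham libraries together and 0 in the injured ones. Its sham level was 1.29 times a floor of 3 counts over the injured group, before the counting error of the sham counts, too close to bound the fold. Between ages in sham valves 11 of the 12 values were positive, against 10130 of 19366 over all genes tested. Of the 12, 0 were called by the 3 tools, with 2 at an unadjusted p under 0.05. The smallest p-values were those of Mmp10, stromelysin 2, with 3 counts over the young and 33 over the aging group, and of Mmp12, the macrophage elastase, at 1.20 ± 0.53. Per library the Mmp10 counts ran from 0 to 2 in young sham and from 1 to 20 in aging sham valves, so these ranges overlapped.

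Of 8 ADAM genes, which encode membrane proteases that shed surface proteins, 1 rose after injury of young valves, against 0.403% of all genes tested. Adam12, known from mesenchymal and muscle cells, changed by 3.14 ± 0.54 on the log2 scale (adjusted p = 0.0474, edgeR). All 8 values were positive, with a median of 0.37, against 9983 of 19366 and a median of 0.01 over all genes tested. The Adam12 call was lost with limma-voom, on RPKM, with only the young libraries and without young sham 1, young sham 2 or young injured 2. In aging valves Adam12 stood at 1.93 ± 0.56 and Adam8 at 1.30 ± 0.61, and 0 of the 8 were called by edgeR, with 1 at an unadjusted p under 0.05 and 1 called by DESeq2. Of 18 ADAMTS genes, secreted proteases that cut proteoglycans and procollagens, 16 were tested and 1 rose in young valves (again against 0.403% of all genes), Adamts8, at 1.40 ± 0.27 (adjusted p = 0.0754). No ADAMTS gene was called with limma-voom, with only the young libraries, with the replicate block, with the cardiomyocyte score as a term or without any 1 of young sham 1, 2 and 3, young injured 2, aging sham 1, 2 and 3 and aging injured 1. In aging valves edgeR called 0, with 1 at an unadjusted p under 0.05, and DESeq2 called 1. The alternative fits without a left-out library called 0 to 329 of all genes in aging valves. Adamts2, a procollagen N-proteinase, stood at 0.51 ± 0.23, and Adamts17 had 47 counts in the sham libraries together and 0 in the injured ones. The sham level of Adamts17 was 10.1 times a floor of 3 counts over the injured group, before the counting error of the sham counts. Adamts17 counts also ran from 0 to 33 per library in young sham valves. Both aging injured libraries were among the 3 with the fewest genes detected.

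Of 19 activators, receptors and other regulators 17 were tested and 0 called by edgeR in young or aging valves, with 6 and 3 at an unadjusted p under 0.05, against 1780 and 1710 of all 19366 genes. DESeq2 called 1 in young and 0 in aging valves. Of all genes, the alternative fits without a left-out library called 11 to 268 in young and 0 to 329 in aging valves. Cd44, a hyaluronan receptor that docks MMPs at the cell surface, stood at 0.99 ± 0.18 in young valves with an adjusted p of 0.0489, just under the 2-fold limit. Plaur, the urokinase receptor, stood at 1.48 ± 0.42 (adjusted p = 0.218). In aging valves Plau, urokinase, stood at 0.94 ± 0.27 and Cd44 at 0.54 ± 0.19.

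Of 20 matrix substrates 4 rose after injury of young valves, against 0.403% of all genes tested, and 19 values were positive, against 9983 of 19366, with a median of 0.42 against 0.01 over all genes tested. They were Col3a1, the type III collagen chain, at 1.48 ± 0.17, Col5a2, a type V collagen chain, at 1.09 ± 0.16, Tnc, tenascin C, at 1.44 ± 0.23, and Vcan, versican, at 1.01 ± 0.19, with adjusted p-values of 0.00656, 0.0253, 0.0321 and 0.0644 in edgeR. Without young sham 2 or without young injured 2 there was 1 call in the list, and with only the young libraries there were 0. In aging valves 18 values were positive, against 9413 of 19366 over all genes tested. Of the 20, 0 were called by the 3 tools, with 4 at an unadjusted p under 0.05. Tnc stood at 0.80 ± 0.25 and Col1a1, a type I collagen chain, at 0.87 ± 0.30.

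Of 16 cytokines and AP-1 subunits known to induce Timp or Mmp genes 1 rose in young valves, against 0.403% of all genes tested: the interleukin-6 family cytokine gene Lif, at 1.88 ± 0.32 (adjusted p = 0.0444, edgeR). This call was lost with only the young libraries and without young sham 2, young sham 3 or young injured 2. In aging valves 0 were called by the 3 tools and 0 had an unadjusted p under 0.05. Il6 had 10 counts in the sham libraries together and 0 in the injured ones, and Tgfb2 stood at -0.27 ± 0.18. The sham level of Il6 was 2.15 times a floor of 3 counts over the injured group, before the counting error of the sham counts. Il6 counts also ran from 0 to 20 per library in young sham valves, and both aging injured libraries had few genes detected. Between ages in sham valves the AP-1 genes Jun and Fos stood at -1.68 ± 0.50 and -1.60 ± 0.50, with an adjusted p of 0.391 and 0.409.

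**Figure D5:**
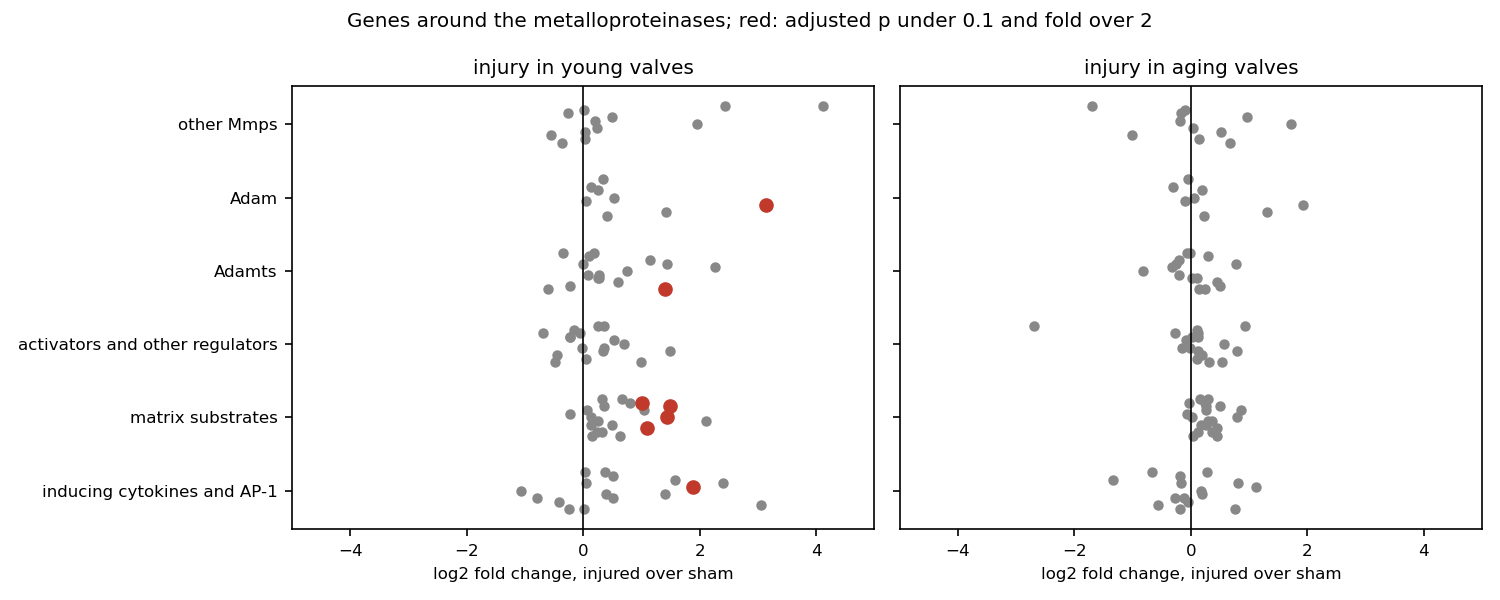
Log2 fold change of injured over sham (horizontal axis) for the tested genes of 6 lists in young (left) and aging valves (right), 1 point per gene; genes at 0 in the whole aging injured group (Adamts17, Il6 and Mmp8) are left out on the right. The 7 red points, all in young valves, are Adam12, Adamts8, Lif, Col3a1, Col5a2, Tnc and Vcan.

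With clone-like symbols (Gm and Rik) left out, the genes whose levels ran most like Timp1 over the 11 libraries were Hn1l, Tubb5, P4hb, AI506816 and Troap. Their Pearson correlations of log2 CPM were 0.987, 0.983, 0.967, 0.965 and 0.958. P4hb encodes protein disulphide isomerase, a subunit of the collagen prolyl 4-hydroxylase, and Tubb5 a beta tubulin. Those most like Mmp14 were P3h1, a collagen prolyl 3-hydroxylase, Tpm3, a tropomyosin, Nans, Sbno2 and Cd44, at 0.978, 0.963, 0.957, 0.954 and 0.953. Between members, Timp1 and Mmp14 stood at 0.925, Mmp14 and Mmp19 at 0.929 and Timp1 and Mmp19 at 0.878, while Timp1 and Timp2 stood at -0.09. These are descriptions over libraries that share the group differences and the library scaling, and carry no test.

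Some members share their position with another gene, and the sources used here do not say whether the counting used strand. In GENCODE release M21, Timp1 lies inside Syn1, Timp3 inside Syn3 and Timp4 inside Syn2, each a synapsin gene on the opposite strand. The start and end of 5 of the 10 genes were the same there as in the deposited data. Those of Mmp2, Mmp3, Mmp14, Mmp15 and Mmp19 were not. Timp1 shares 0 exonic bases with Syn1, Timp3 shares 1733 of its 8144 exonic bases with Syn3, and Timp4 shares 90 of 5894 with Syn2. Syn3 was counted 726 to 1358 times per library and Timp3 79897 to 163017 times. Syn2, at 55 to 231 counts, was close to the level of Timp4. Mmp19 shares 789 of its 3533 exonic bases with Tmem198b, which was counted 516 to 1195 times, and 212 with the antisense gene Gm47093, inside which it lies. Tmem198b was counted 705, 777 and 516 times in young sham and 1167, 1175 and 860 times in young injured libraries. In aging valves it was counted 871, 793 and 764 times in sham and 525 and 1195 times in injured libraries. For Timp3, Timp4 and Mmp19 the reads of the overlapping genes cannot be told apart in the shared bases. The part of such reads in the Mmp19 values was not tested.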

How the data were processed

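Libraries were made from 200 ng of total RNA for 150 nt paired-end sequencing (per the labels' protocols). Per the submitters' processing notes, TopHat2 2.1.0 and the mm10 build were used. How reads were counted, whether by strand and on which gene models, was not given in the sources used here. The authors deposited raw counts for 46983 genes and RPKM values for 13526 genes. Among the library columns of each table, 1 matched no sample label and was not used. The 10 pairs of libraries within groups differed by 20.9 to 228 chi-square units per degree of freedom, so each counted as 1 replicate.

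Genes kept by filterByExpr (minimum count 10) entered a quasi-likelihood fit in edgeR 4.0.16 (R 4.3.3), with TMM scaling, 11 libraries and 4 group means, and Benjamini-Hochberg adjustment over all 19366 genes. Calls needed an adjusted p below 0.1 with more than a 2-fold change, as the series' design text states. Standard errors are the absolute log2 fold change over the square root of F. Log2 CPM used a prior count of 2. The fit was run on simulated counts with a single dispersion, where some well counted genes differed by more than 2-fold in the young injured group. That run does not bear on changes near 2-fold or on the aging contrasts. The deposited RPKM served for levels, shares and ratios between genes and for 1 alternative fit. The members, lists and tests were chosen with earlier results of these data known. Named genes were the 10 members, list genes called (at most 5 per list and comparison) or else the 2 with the smallest p, and the 5 genes most correlated with each member called in any comparison. Clone-like symbols (Gm and Rik) were left out of that ranking by correlation. Alternatives were DESeq2 1.42.0, limma 3.58.1 (voom, and log2 of RPKM + 1), other scaling and filters, fits of 1 age, terms for replicate number, cardiomyocyte score and sex, and leaving out each library. Floors of 3 counts cover the counting error of the group at 0 only, not that of the sham counts or the spread between animals.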

Additional observations from a re-analysis of the deposited data

How the results depend on the processing

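The number of the 10 genes called after injury of young valves, 2, was 1 with only the young libraries, with the cardiomyocyte score or with sex as a term, and 1 to 3 when each library was left out in turn, with Mmp14 the gene lost and Mmp3 the gene gained (without young injured 1). DESeq2 called 1 gene, against 0, for injury in aging valves (Timp1), for the injury by age interaction (Timp1) and for age in sham valves (Mmp3). Labels give the groups the same replicate numbers without saying that they pair animals, and same-numbered sham and injured libraries had correlations of their deviations from -0.0551 to 0.245. With a replicate block the number called after injury of young valves was 2, with Timp1 at 2.77 and Mmp14 at 1.10. The difference in balance between injured and sham, 0.40 in young and 0.13 in aging valves, was -0.12 and -0.23 from summed CPM, 0.079 and -0.082 from summed RPKM, and -0.34 and -0.11 without Timp1. Leaving out each library gave 0.23 to 0.51 in young and -0.022 to 0.28 in aging valves, the lowest without aging injured 1. The count over all genes for injury in young valves was 81, against 11 to 268 in other fits and 16 to 447 without single libraries, and for the matrix substrates it was 4, against 0 to 5 and 1 to 5. In the same order, all genes called numbered 0, 0 to 329 and 0 to 261 for injury in aging valves, 115, 38 to 402 and 38 to 284 for injury averaged over age, 0, 0 to 174 and 0 for the interaction, 5, 2 to 200 and 1 to 10 for age in sham valves, and 12, 4 to 599 and 3 to 429 for age in injured valves.

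Values near 0 changed sign. For age in sham valves Timp2 was -0.00768 with RLE size factors, -0.0077 with DESeq2 and -0.20 with the cardiomyocyte score. Timp3 was -0.00968, -0.00969 and -0.051 there, -0.000151 with limma-voom and -0.00129 without mitochondrial genes. Mmp19 was 0.025 with limma-voom, 0.032 with sex and 0.043 on RPKM, and Mmp9 was -0.22 with the cardiomyocyte score. For injury averaged over age Timp2 was -0.00261 with limma-voom, -0.010 without mitochondrial genes, -0.018 with the replicate block and -0.050 with the cardiomyocyte score, where Mmp15 was 0.21. Timp4 was -0.049 with limma-voom and -0.12 with sex. For age in injured valves Mmp15 was 0.16 with limma-voom, 0.30 with the replicate block, 0.37 with the cardiomyocyte score and 0.066 on RPKM. Leaving out each library in turn moved the value from -0.144 to 0.439 for Mmp3 and from -0.00427 to 0.663 for Mmp9 (injury in aging valves), from -0.069 to 0.0677 for Timp2, -0.246 to 0.246 for Timp4 and -0.41 to 0.238 for Mmp15 (injury averaged over age), from -0.086 to 0.397 for Mmp2 and -0.353 to 0.0875 for Mmp19 (interaction), from -0.0857 to 0.0901 for Timp2, -0.118 to 0.108 for Timp3, -0.327 to 0.338 for Mmp9 and -0.147 to 0.102 for Mmp19 (age in sham valves), and from -0.467 to 0.648 for Mmp15 and -0.355 to 0.0784 for Mmp19 (age in injured valves). All these genes were uncalled in the fits concerned, and the cause was not tested.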
